A study of Homo sapiens with 8 samples.

Results

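Rab GTPases are small G proteins that mark the membranes of the endocytic and secretory routes. The 161 probe sets described here are those annotated with exactly 1 gene symbol made of RAB, digits and at most 1 capital letter. They stand for 57 genes, out of 49293 probe sets and 18132 named genes on the array, and effectors and regulators such as the RAB11FIP and RAB3GAP genes are not among them. RNA came from H1299, a human lung carcinoma cell line, and was hybridised to 8 one-colour arrays. Cells transfected with short hairpin RNA (shRNA) against USF1, an E-box-binding transcription factor, filled 3 arrays and were compared with 3 arrays of their own control. Cells transfected with shRNA against UGT1A3, a glucuronosyltransferase, filled 1 array and were compared with 1 control array. The labels give neither the hairpins, nor what the controls received, nor the time after transfection, and all groups rest on 1 cell line.

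A Rab protein switches between a GDP-bound form, held soluble by GDI, and a GTP-bound form on the membrane, where it recruits tethers, motors and adaptors. Guanine nucleotide exchange factors (GEFs) switch it on, GTPase-activating proteins (GAPs) switch it off, and a geranylgeranyl anchor added with the help of REP holds it on the membrane. RAB5 proteins act at early endosomes, RAB4 and RAB11 in recycling, RAB7 at late endosomes and lysosomes, RAB1, RAB2 and RAB6 around the Golgi, and RAB3, RAB8 and RAB27 in exocytosis. The genes are ordered below by these roles.

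Values are log2 intensities, so that a difference of 1 is a doubling, and each gene is given by its brightest probe set over the arrays of a comparison. A gene was called dim, and not tested, when that mean lay under the 40th percentile over all probe sets (log2 5.63 for the USF1 arrays and 4.76 for the UGT1A3 arrays). Array medians were 6.53 to 6.55 in both USF1 groups, 5.63 on the UGT1A3 knockdown array and 5.59 on its control, so each knockdown was set only against its own control. USF1 itself read 6.06, 5.88 and 6.13 after USF1 knockdown, against 6.31, 6.55 and 6.42 in the controls, which is 75.6% of the control level (change -0.40, SE 0.08, limma adjusted p = 0.00818). The 9 probe sets that name UGT1A3 all name other genes too and were dim in both sets, so the arrays do not check that knockdown. Of markers of the line, VIM, KRT18 and KRT8 were bright, while the epithelial surface genes EPCAM and CDH1 were dim. After USF1 knockdown KRT8 rose by 0.25, CDH2 by 0.28 and FN1 by 0.23, while VIM and KRT18 changed by 0.003 and 0.04 and did not pass. The part of these markers in the results below was not tested. Of 14 markers of leukocytes, endothelium, fibroblasts and lung epithelium 6 were bright, and none of these passed (none at an unadjusted p of 0.05 either). The 8 dim ones had means of 3.30 to 5.53 after USF1 knockdown and 3.28 to 5.40 in the controls. Nothing in the labels says that replicates came from separate cultures, so the spread behind the p-values may be purely technical, and the number of arrays limits the precision.

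After USF1 knockdown 22 of the 41 Rab genes bright enough to be tested passed a limma adjusted p of 0.05: 15 genes rose and 7 genes fell. This is 53.7% of the tested Rab genes, where 40.7% of all 11448 tested genes passed (22.0% upward and 18.7% downward), so a call as such is common in these arrays. With a change of at least 1.2-fold required as well, 5 rose and 3 fell, 19.5% of the Rab genes beside 14.7% of all genes (7.58% upward and 7.09% downward). The 3 knockdown arrays lay wholly on one side of the 3 controls for 27 of the 41 Rab genes (65.9%), beside 53.6% of all genes. The median change was 0.04 over the Rab genes and 0.01 over all genes, and the median size of a change was 0.12 and 0.10. The changes were therefore small for most Rab genes, and the 8 past 1.2-fold are RAB15, RAB38, RAB13, RAB27A and RAB8B upward and RAB3B, RAB6A and RAB2B downward. In bulk RNA, fewer cells expressing a gene and less RNA per cell cannot be told apart.

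**Figure D1:**
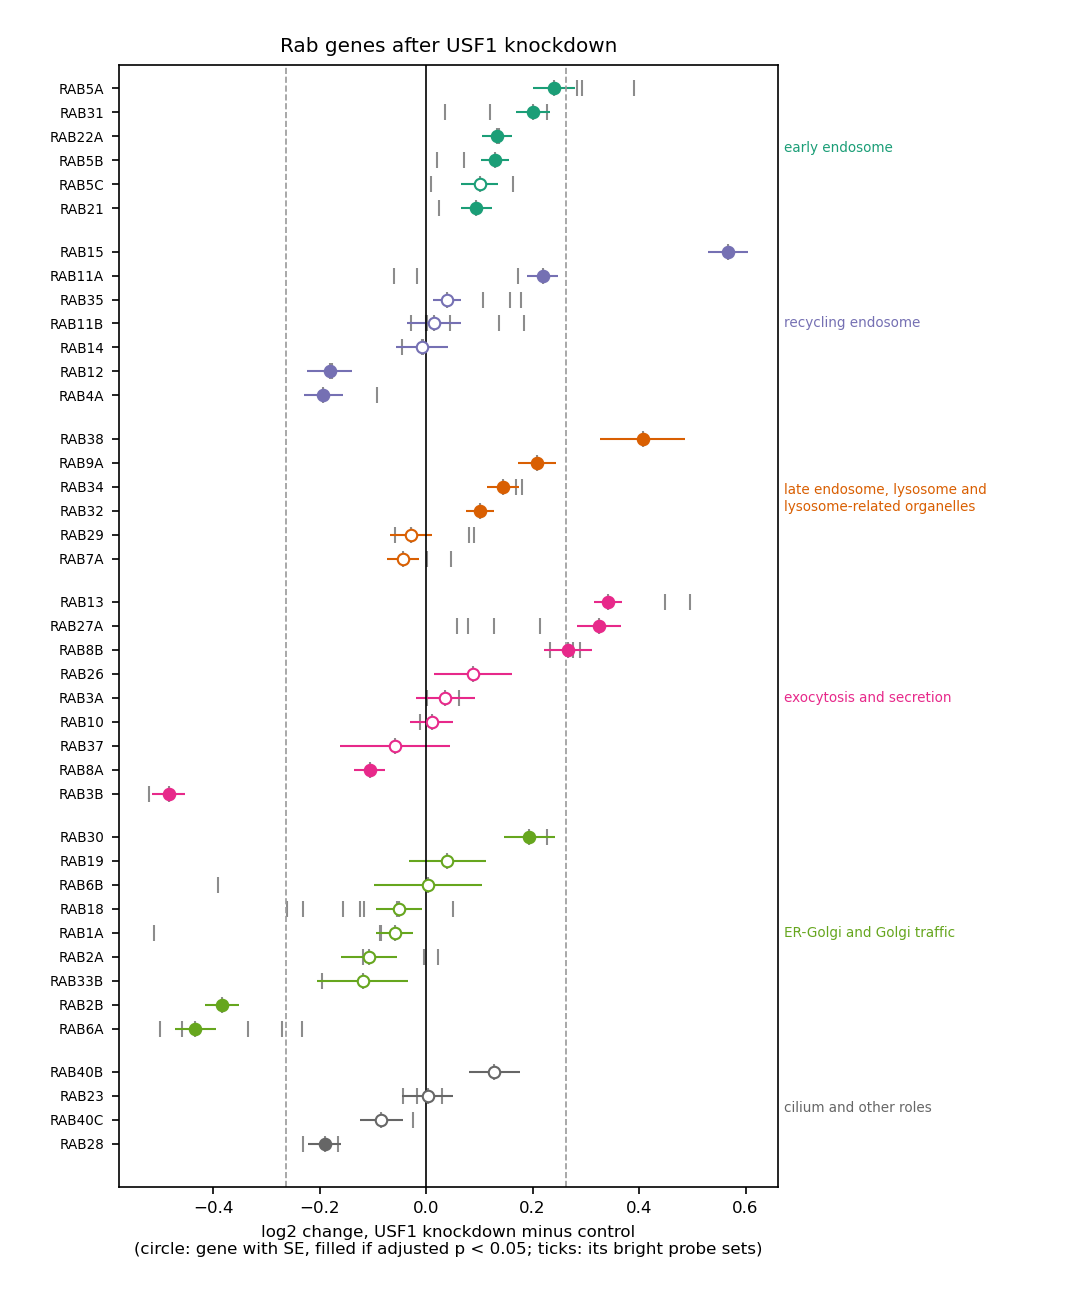
Log2 change after USF1 knockdown (USF1 knockdown minus control, 3 against 3 arrays) of the 41 tested Rab genes, grouped by role. Circles are genes with their standard error, filled where the adjusted p was under 0.05, grey ticks are the bright probe sets of a gene, and dashed lines mark 1.2-fold. All 6 early endosome genes lie right of 0, while RAB3B, RAB6A and RAB2B lie farthest left.

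Of the 6 tested early endosome genes 5 rose, none of them by 1.2-fold, and none fell. This is 83.3% passing, beside 40.7% of all genes (22.0% upward). No role group was tested as a set. The median change was 0.13, beside 0.01 over all genes. RAB5A, which drives fusion of early endosomes, rose most. It read 11.44, 11.34 and 11.46 after USF1 knockdown and 11.15, 11.19 and 11.19 in the controls. The groups did not overlap, and the change was 0.24 (SE 0.04, adjusted p = 0.00365). All 4 of its bright probe sets passed upward, with changes of 0.24 to 0.39. RAB31, which acts between the trans-Golgi network and endosomes, rose by 0.20 (adjusted p = 0.00287), with 3 of 4 bright probe sets passing. RAB22A, of early and recycling endosomes, and RAB5B, a paralog of RAB5A, rose by 0.13 each. RAB5B did so on 1 of its 3 bright probe sets, and its mean over all probe sets changed by 0.07 (adjusted p = 0.079). RAB21, which takes part in integrin endocytosis, rose by 0.09 (adjusted p = 0.0359), but its call was lost without any 1 of the 6 arrays (adjusted p = 0.0521 to 0.115). RAB5C, the third RAB5 gene, changed by 0.10 with an adjusted p of 0.0548, or 0.12 and 0.0471 without control 2.

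Among 7 recycling endosome genes 2 rose and 2 fell (57.1% passed, beside 40.7% of all genes). RAB15, known for slowing traffic through early and recycling endosomes, had the largest change of any tested Rab gene. Its single probe set read 8.44, 8.50 and 8.44 after USF1 knockdown and 7.86, 7.95 and 7.86 in the controls. The knockdown level was 148% of the control level, with no overlap (change 0.57, SE 0.04, adjusted p = 1.14e-04). RAB11A, the main GTPase of slow recycling, rose by 0.22 (adjusted p = 0.00142). Across its 4 bright probe sets changes ran from -0.06 to 0.22, of which 2 passed upward, and their mean changed by 0.08 (adjusted p = 0.0567). RAB11B, its near copy, changed by 0.01 (adjusted p = 0.848), and none of its 7 bright probe sets passed. RAB4A, of fast recycling, fell by 0.19 (adjusted p = 0.00569), though its mean over all probe sets, a dim one included, changed by only -0.06 (adjusted p = 0.199). Its 2 bright probe sets changed by -0.19 and -0.09, and only the first passed. RAB12, which directs recycling cargo to lysosomes, fell by 0.18, and without control 1 its adjusted p was 0.0512. RAB35 and RAB14 changed by 0.04 and -0.01 and did not pass, although the mean over all RAB35 probe sets rose by 0.11 (adjusted p = 0.0125).

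Of 6 genes of late endosomes, lysosomes and lysosome-related organelles 4 rose and none fell, with a median change of 0.12. This is 66.7% passing, beside 40.7% of all genes. RAB38, which with RAB32 supplies melanosomes and related organelles, read 6.92, 6.67 and 6.91 after USF1 knockdown. In the controls it read 6.32, 6.45 and 6.52. The change was 0.41 (SE 0.08, adjusted p = 0.00706), with the largest SE of the genes past 1.2-fold, and its other 2 probe sets were dim. RAB9A, which returns mannose 6-phosphate receptors from late endosomes to the Golgi, rose by 0.21 on its only probe set (adjusted p = 0.00393). RAB34, tied to lysosome positioning and ciliogenesis, rose by 0.14 (adjusted p = 0.00901), with all 3 probe sets passing upward. RAB32 rose by 0.10 (adjusted p = 0.0221). That call was lost without control 1, 2 or 3 and without knockdown 2 or 3 (adjusted p = 0.0516 to 0.0776). RAB7A, the GTPase of late endosome and lysosome fusion, changed by -0.04 (adjusted p = 0.299), and RAB29, a partner of the kinase LRRK2, by -0.03 (adjusted p = 0.614). None of their 8 bright probe sets passed.

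The exocytosis genes held the most changes past 1.2-fold of any role group, 3 upward and 1 downward. Role groups were chosen with earlier results of these data known, so this order of groups is a description only. Of 9 tested genes 3 rose, all by at least 1.2-fold, and 2 fell, 1 of them by at least 1.2-fold. This is 55.6% passing, beside 40.7% of all genes, and 44.4% passing with 1.2-fold, beside 14.7%. RAB13, which serves junction assembly and polarised delivery to the surface, read 12.85, 12.87 and 12.84 after USF1 knockdown and 12.51, 12.50 and 12.52 in the controls. It rose by 0.34 (SE 0.03, adjusted p = 2.07e-04), and its 3 probe sets, with changes of 0.34 to 0.50, all passed. RAB27A, which docks secretory lysosomes and exosome-bearing bodies at the plasma membrane, read 8.39, 8.27 and 8.28 after knockdown against 7.96, 8.01 and 7.99 in the controls. It rose by 0.32 (SE 0.04, adjusted p = 0.00117), and of its 5 bright probe sets, at 0.06 to 0.32, 2 passed. The mean over all RAB27A probe sets rose by 0.16, under 1.2-fold (adjusted p = 0.00348). RAB8B, of traffic from the Golgi to the surface, read 9.82, 9.89 and 9.82 after knockdown and 9.56, 9.51 and 9.66 in the controls. It rose by 0.27 (SE 0.05, adjusted p = 0.00406), just past 1.2-fold (0.23 without control 2), and all 4 bright probe sets passed upward.

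RAB3B, a GTPase of regulated exocytosis, fell most of all tested Rab genes. Its knockdown arrays read 8.30, 8.27 and 8.25 and its controls 8.76, 8.73 and 8.79, with no overlap. The knockdown level was 71.5% of the control level (change -0.48, SE 0.03, adjusted p = 1.11e-04), and the second bright probe set fell by 0.52. RAB8A, the paralog of RAB8B, fell by 0.11 on its only probe set (adjusted p = 0.0249), so the paralogs moved in opposite directions. The RAB8A call was lost without control 2 or 3 and without knockdown 2 or 3 (adjusted p = 0.0538 to 0.0795). RAB26 and RAB37, of secretory granules, changed by 0.09 and -0.06, and RAB3A and RAB10, of synaptic vesicle release and glucose transporter delivery, by 0.04 and 0.01. None of these 4 passed.

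Around the Golgi 2 genes fell by at least 1.2-fold and 1 rose, of 9 tested, and the median change was -0.06. This is 33.3% passing, beside 40.7% of all genes. RAB6A, which directs retrograde and secretory traffic at the Golgi, read 9.82, 9.92 and 9.80 after USF1 knockdown and 10.31, 10.28 and 10.27 in the controls. It fell by 0.43 to 74.0% of the control level (SE 0.04, adjusted p = 3.37e-04), and all 6 bright probe sets fell, by 0.23 to 0.50. The mean over all RAB6A probe sets, dim ones included, fell by 0.25, under 1.2-fold (adjusted p = 0.00203). Some of them may also bind the near-identical RAB6C and RAB6D, which the array does not separate fully from RAB6A. RAB2B, a Golgi GTPase, read 8.70, 8.67 and 8.66 after knockdown against 9.04, 9.11 and 9.03 in the controls, and fell by 0.38 on its only bright probe set (SE 0.03, adjusted p = 2.87e-04). Its paralog RAB2A changed by -0.11 (adjusted p = 0.155). RAB30, a Golgi GTPase, rose by 0.19 (adjusted p = 0.0179). Without control 1 or 2 its adjusted p was 0.0584 and 0.0577.

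In several Golgi genes the probe sets disagreed. RAB1A, which runs traffic from the endoplasmic reticulum to the Golgi, changed by -0.06 on its brightest probe set (adjusted p = 0.223). Another of its 4 probe sets fell by 0.51 (adjusted p = 8.40e-04 among all bright probe sets), and the mean over all 4 fell by 0.19 (adjusted p = 0.00194). RAB18, of the endoplasmic reticulum and lipid droplets, changed by -0.05 on its brightest probe set, whereas 3 of its 9 bright probe sets passed downward and the mean over all its probe sets fell by 0.13 (adjusted p = 0.00559). RAB6B, a paralog of RAB6A best known from neurons, changed by less than 0.01 on its brightest probe set (adjusted p = 0.98), while its other bright probe set fell by 0.39 and the mean over all its probe sets fell by 0.27 (adjusted p = 0.0203). RAB33B, tied to the Golgi and autophagy, and RAB19 changed by -0.12 and 0.04 and did not pass. Probe sets of 1 gene can cover different transcript ends or share probes, so they are not replicates of each other.

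Of the remaining 4 tested genes 1 fell and none rose (25% passed, beside 40.7% of all genes). RAB28, a ciliary GTPase of photoreceptors, read 10.51, 10.55 and 10.47 after USF1 knockdown and 10.69, 10.72 and 10.69 in the controls (change -0.19, SE 0.03, adjusted p = 0.00341), and all 3 of its probe sets passed downward. RAB23, an inhibitor of Hedgehog signalling, changed by less than 0.01 (adjusted p = 0.969). RAB40B and RAB40C, which carry a SOCS box and serve as ubiquitin ligase adaptors, changed by 0.13 and -0.08 without passing. Without knockdown 3 the RAB40B change was 0.18 (adjusted p = 0.0074).

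**Figure D2:**
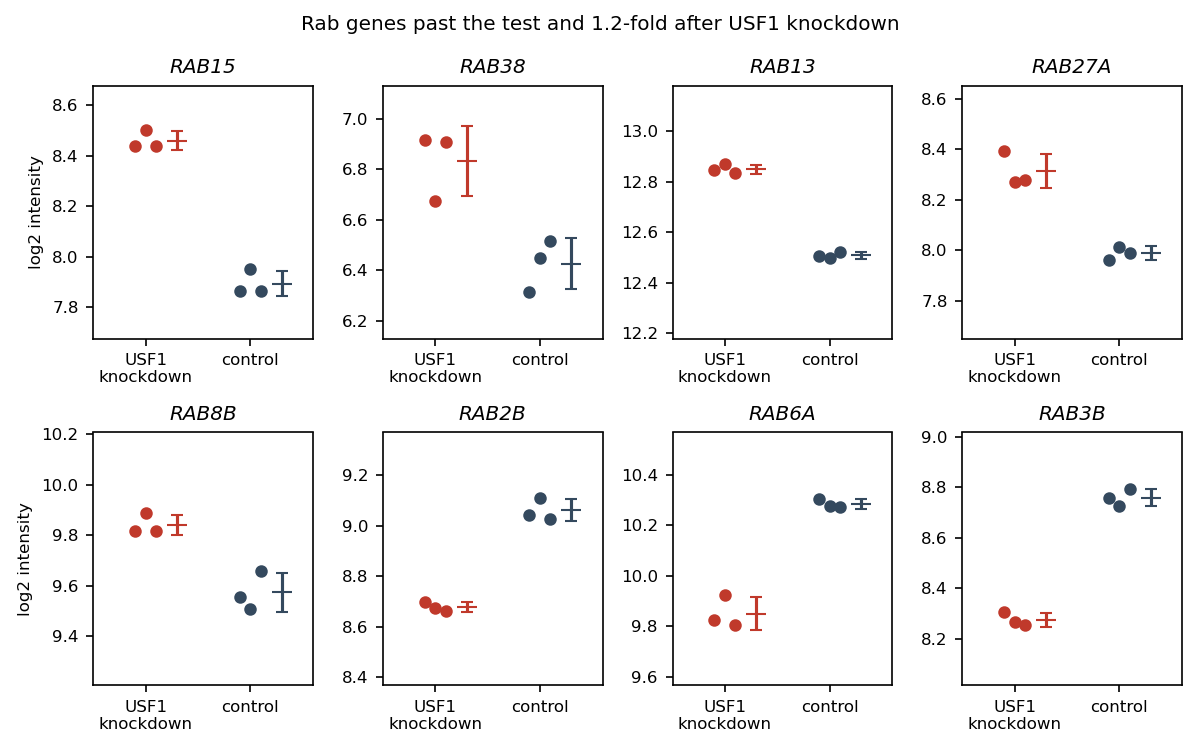
Log2 intensity on each USF1 knockdown array (left, red) and each control array (right, blue) for the 8 Rab genes that passed with at least a 1.2-fold change, with the mean and SD of each group beside the points (n = 3 each). Each vertical axis spans 1 log2 unit, and in no panel do the groups overlap.

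The other 16 Rab genes were dim in the USF1 arrays and were not tested. These were RAB17, RAB20, RAB25, RAB27B, RAB33A, RAB36, RAB39A, RAB39B, RAB3C, RAB3D, RAB40A, RAB41, RAB42, RAB6D, RAB7B and RAB9B. Their 26 probe sets had means of 3.46 to 5.62 and differences of -0.41 to 0.28, all under the dim limit. RAB25, the epithelial member of the RAB11 group, and RAB27B, the close relative of RAB27A, are among them. Across all members, 118 of 161 probe sets were bright in the USF1 arrays, and 53 of these passed when every bright probe set was tested on its own (32 upward and 21 downward). This is 44.9%, beside 37.6% of all bright probe sets. No Rab gene had bright probe sets passing in opposite directions.

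USF1 binds the E-box CACGTG, so the promoters of the Rab genes were searched for these 6 letters, which read the same on both strands. Promoters span 250 bases before to 50 bases after the start of the gene, from RefSeq on GRCh38.p14. Of the 57 Rab genes 45 were matched by symbol, and 5 of them (11.1%) held CACGTG, where 8.77% of all 27305 genes with a promoter there held it. The 5 were RAB5A, RAB31, RAB21, RAB4A and RAB29, all among the 33 matched genes that were tested (15.2% of these). The 8.77% was not restricted to tested genes. RAB5A, RAB31 and RAB21 rose after USF1 knockdown, RAB4A fell, and RAB29 did not pass. The RAB21 and RAB4A calls were lost in some alternatives. Whether the motif bears on these changes was not tested. The 130 bases before the start of the first 4 are shown to place the motif, in capitals, relative to the start, which follows the last base. RAB5A lies at chr3:19946967-19947096, RAB31 at chr18:9708171-9708300, RAB21 at chr12:71754733-71754862 and RAB4A at chr1:229270981-229271110, all on the + strand.
RAB5A: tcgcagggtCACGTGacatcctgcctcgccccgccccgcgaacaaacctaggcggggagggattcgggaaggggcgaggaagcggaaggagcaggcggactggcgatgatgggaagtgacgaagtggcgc
RAB31: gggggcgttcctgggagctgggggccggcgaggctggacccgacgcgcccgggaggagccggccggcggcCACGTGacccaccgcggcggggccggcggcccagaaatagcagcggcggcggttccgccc
RAB21: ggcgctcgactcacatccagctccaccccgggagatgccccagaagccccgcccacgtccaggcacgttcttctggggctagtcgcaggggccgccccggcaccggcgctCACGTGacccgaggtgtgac
RAB4A: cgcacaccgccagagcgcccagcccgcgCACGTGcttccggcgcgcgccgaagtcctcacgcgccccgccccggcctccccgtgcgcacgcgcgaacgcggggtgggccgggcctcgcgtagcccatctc
The motif began 121 bases before the start in RAB5A, 102 in RAB4A, 60 in RAB31 and 20 in RAB21. In RAB29 it lay after the start. Promoters of the tested genes RAB1A, RAB2A, RAB12, RAB15, RAB26, RAB33B, RAB37 and RAB38 were not matched by symbol and so not searched. The same held for RAB20, RAB33A, RAB36 and RAB39B, which were dim in the USF1 arrays. A match is a description of these letters and says nothing about binding.

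The proteins that load, switch and read Rab GTPases were described from 5 lists with 211 members, of which 188 were tested. Of these, 50 rose and 24 fell (39.4% passed, beside 40.7% of all genes), and the median change was 0.04. In the list of GDI, REP, prenylation and related factors 4 of 9 tested genes rose and 2 fell (66.7% passed). ARL6IP5, RABAC1 and PRAF2, 3 related membrane proteins of the prenylated Rab acceptor family, rose by 0.38 (adjusted p = 2.72e-04), 0.21 and 0.28. RABIF, which binds nucleotide-free exocytic Rabs, fell by 0.36 (adjusted p = 0.00183), with 2 bright probe sets at -0.52 and -0.36.

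Among 51 GEFs 10 rose and 7 fell (33.3% passed, beside 40.7% of all genes). DENND5B rose by 0.44, DENND1A, an exchange factor for RAB35, by 0.39, and SH3BP5, an exchange factor for RAB11, by 0.22, while RPGR, a ciliary protein that binds RAB8A, fell by 0.33. The bright probe sets disagreed for DENND5B (-0.18 to 0.44) and DENND1A (-0.03 to 0.39). Among 31 GAPs 7 rose and 4 fell (35.5% passed). TBC1D9 and TBC1D2, the GAP of RAB7, rose by 0.42 each and SGSM2, which acts on RAB32 and RAB38, by 0.25, whereas TBC1D25, which acts on RAB33B, fell by 0.31.

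Of 54 endosomal effectors 17 rose and 8 fell (46.3% passed, beside 40.7% of all genes). MYO5B, the myosin that carries RAB11 vesicles, changed most of all listed genes. It read 7.77, 7.85 and 7.87 after USF1 knockdown and 7.07, 7.10 and 7.13 in the controls, a rise of 0.73 (SE 0.04, adjusted p = 4.82e-05). The RAB11 effectors moved both ways: RAB11FIP5 rose by 0.45, and RAB11FIP3 fell by 0.53. The 4 bright RAB11FIP3 probe sets changed by -0.53 to -0.12. EEA1, the tether that RAB5 recruits to early endosomes, read 8.96, 8.90 and 8.86 after knockdown and 9.30, 9.27 and 9.25 in the controls. It fell by 0.37 (SE 0.04, adjusted p = 4.36e-04), while RAB5A rose. Of 43 Golgi and secretory effectors 12 rose and 3 fell (34.9% passed). The golgins GOLGB1 and GCC2 rose by 0.30 and 0.27, and BICD1 and BICD2, dynein adaptors that RAB6 recruits, by 0.29 and 0.25, while RAB6A fell. Probe sets disagreed for GOLGB1 (-0.18 to 0.30) and BICD2 (-0.01 to 0.25).

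In the UGT1A3 pair, with 1 array per group and so no test, 43 Rab genes were bright. Of these, 10 stood above the control by 1.2-fold or more on the knockdown array and 3 stood below it by as much, 30.2% beside 27.6% of all 11620 genes compared (15.6% higher and 12.0% lower). At least 1.5-fold apart were 4 Rab genes, or 9.30%, beside 3.56% of all genes (2.15% higher and 1.41% lower). These were RAB39B, RAB40B and RAB26, higher, and RAB5C, lower. RAB39B read 4.65 on the control array, under the dim limit, so the probe set that stands for it was bright only through the knockdown array. It was compared in 4 of the 6 alternatives for this pair, so the share of 9.30% rests on few genes. The other 30 bright Rab genes were within 1.2-fold, and 14 of the 57 were dim in these arrays too. The median difference was 0.10 over the Rab genes and 0.02 over all genes. All these differences describe 2 arrays.

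RAB5C stood at the far end. It read 7.51 on the UGT1A3 knockdown array and 8.80 on the control array, so that the knockdown level was 40.9% of the control level (difference -1.29). All 3 of its probe sets were lower, with 7.51, 7.27 and 7.00 on the knockdown array against 8.80, 8.38 and 8.31 on the control array. Only 3 of the 11620 genes had a more negative difference in this pair. The paralogs did not follow one pattern. RAB5A read 9.59 on the knockdown array and 9.95 on the control array, a difference of -0.36, and its 4 bright probe sets ran from -0.43 to -0.15. RAB5B read 8.56 on the knockdown array and 8.15 on the control array, a difference of 0.40, and its 3 bright probe sets ran from 0.14 to 0.40. EEA1 read 6.64 on the UGT1A3 knockdown array and 7.12 on the control array (difference -0.49). After USF1 knockdown RAB5A and RAB5B rose, and the 3 RAB5C probe sets changed by 0.01 to 0.16, of which 1 passed upward among all bright probe sets (adjusted p = 0.0146). Whether the 2 knockdowns differ could not be tested with 1 array per UGT1A3 group.

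**Figure D3:**
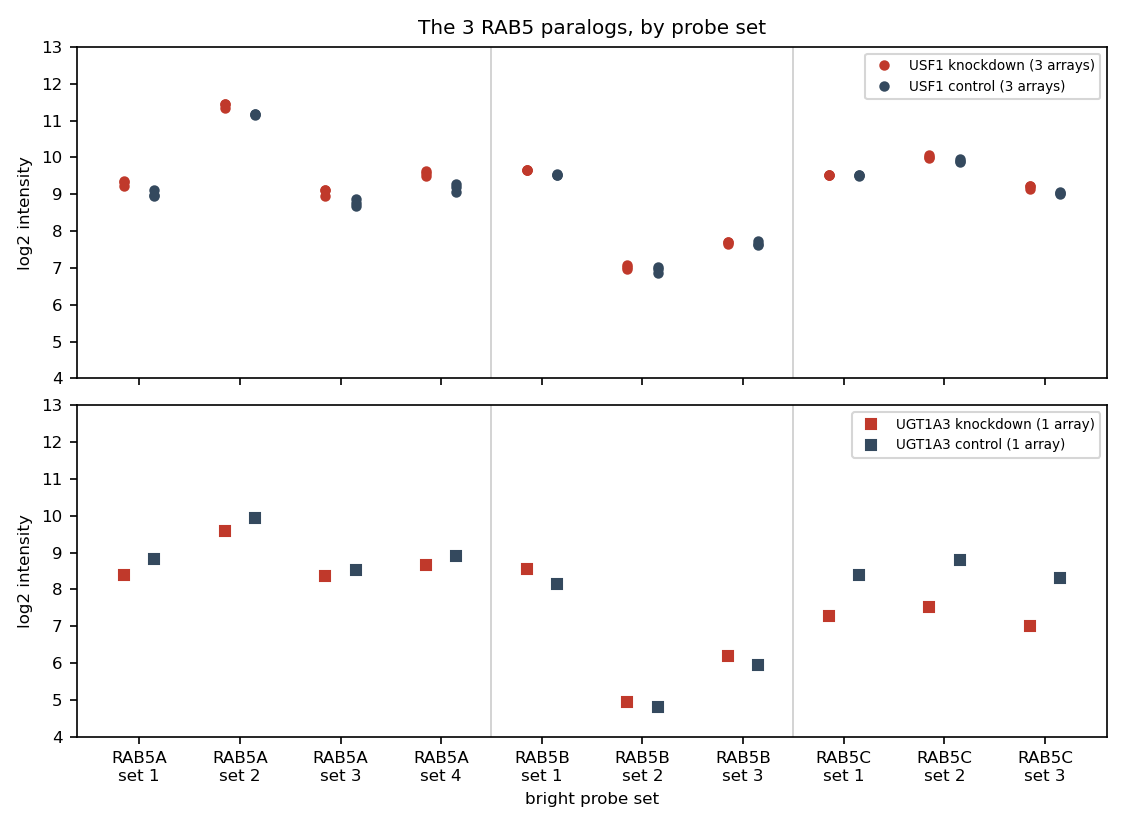
Log2 intensity of the 10 bright probe sets of RAB5A, RAB5B and RAB5C, with knockdown arrays in red left of control arrays in blue. The upper panel holds the 3 USF1 knockdown and 3 control arrays, the lower panel the single UGT1A3 knockdown and control arrays. In the lower panel the 3 RAB5C probe sets differ by -1.31 to -1.11 between the knockdown array and its control.

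The third Rab gene lower in the UGT1A3 knockdown array was RAB18. It read 8.80 there and 9.21 on the control array (difference -0.41), and all 8 of its bright probe sets were lower, with differences of -0.41 to -0.27. The mean over all 10 RAB18 probe sets, dim ones included, differed by -0.21, under 1.2-fold. On the other side, RAB39B, a GTPase best known from neurons, read 5.62 on the knockdown array and 4.65 on the control array, which is under the dim limit. The measured difference was 0.97, or 0.87 when the control is set at that limit. Another bright probe set differed by 0.52. RAB40B read 6.46 on the knockdown array against 5.78 on the control array (0.68). RAB26 read 7.01 on the knockdown array against 6.41 on the control array (0.60). Each has a single probe set. RAB27A read 7.68 on the knockdown array and 7.23 on the control array (0.45), and its 5 bright probe sets were all higher, by 0.28 to 0.48. RAB6B read 6.35 on the knockdown array and 5.94 on the control array (0.41). The other genes at least 1.2-fold higher were RAB9A (0.31), RAB6A (0.30), RAB15 (0.30) and RAB13 (0.28). Of the 185 bright listed regulators and effectors 35 stood 1.2-fold or more above the control and 12 as far below it, 25.4% in all, beside 27.6% of all genes.

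**Figure D4:**
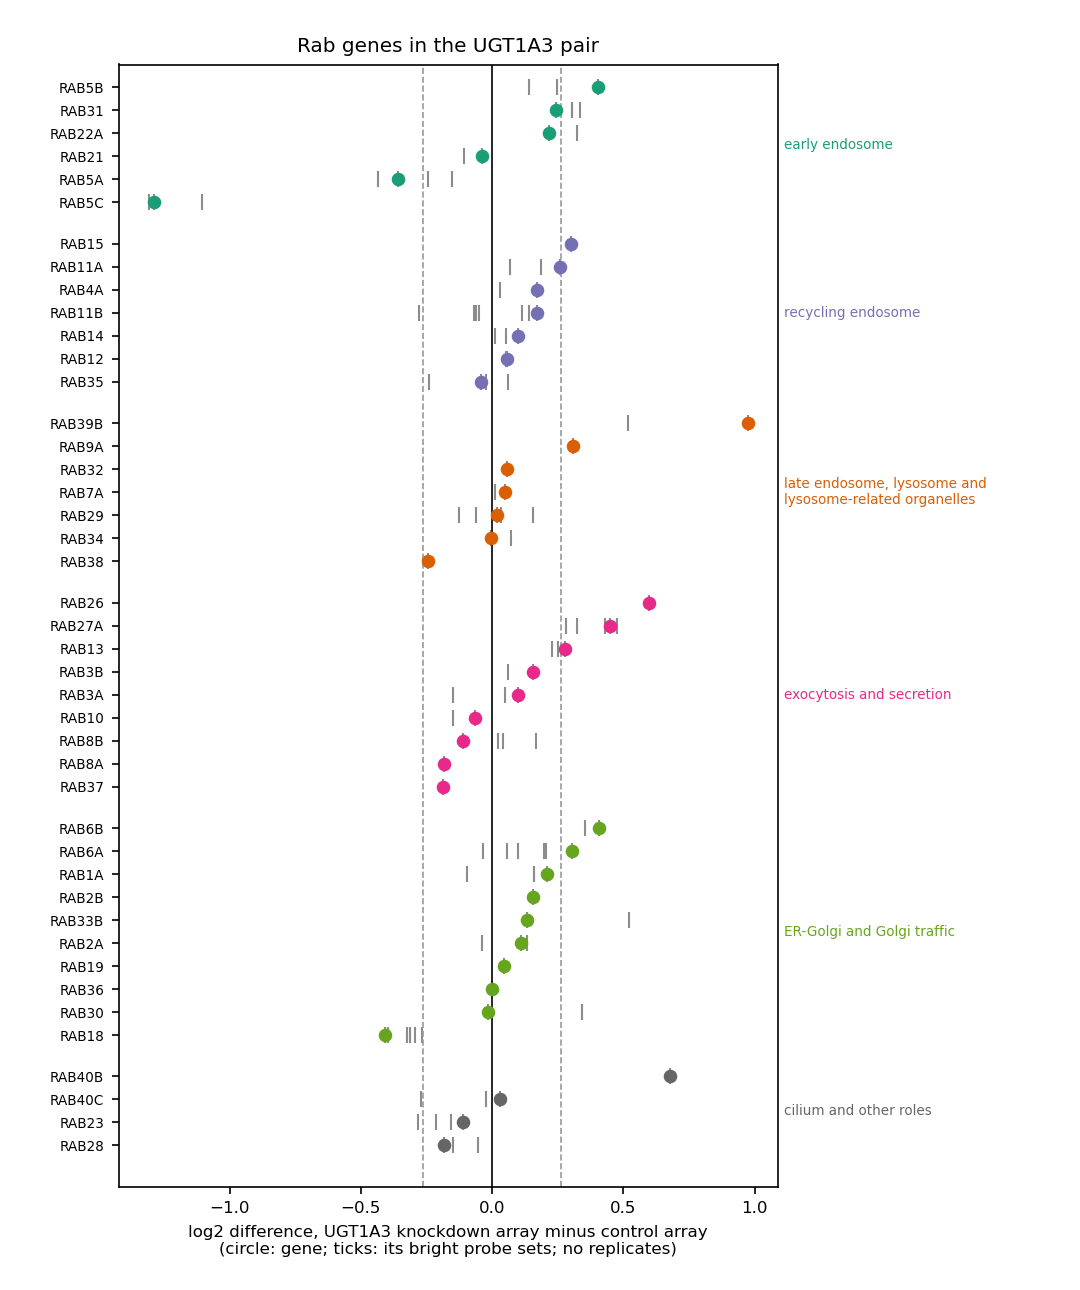
Log2 difference between the UGT1A3 knockdown array and its control array for the 43 bright Rab genes, grouped by role. Circles are genes, grey ticks their bright probe sets and dashed lines 1.2-fold in either direction. RAB5C lies alone at -1.29, and RAB39B lies at 0.97.

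The 2 knockdowns have separate controls and were set side by side for the 41 Rab genes bright in both. Of the 15 Rab genes that rose after USF1 knockdown, 5 were at least 1.2-fold higher in the UGT1A3 knockdown array, 1 was at least 1.2-fold lower and 9 were within 1.2-fold. The 5 were RAB15, RAB13, RAB27A, RAB9A and RAB5B, and the 1 lower was RAB5A. Of the 7 that fell after USF1 knockdown 1 was at least 1.2-fold higher in the pair, RAB6A at 0.30 on its brightest probe set. The 6 bright RAB6A probe sets ran from -0.03 to 0.30 there. None of the 7 was at least 1.2-fold lower, and 6 were within 1.2-fold. How often other genes overlapped in this way was not tested. These counts therefore do not show a concordance particular to Rab genes. Across all 11620 genes compared in the pair, 15.6% exceeded the control by that factor and 12.0% fell short of it. Those shares disregard the change after USF1 knockdown. RAB3B, which fell by 0.48 after USF1 knockdown, read 7.61 on the UGT1A3 knockdown array and 7.45 on its control (0.15). RAB38, which rose by 0.41 after USF1 knockdown, read 5.36 on the UGT1A3 knockdown array and 5.60 on its control (-0.24).

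**Figure D5:**
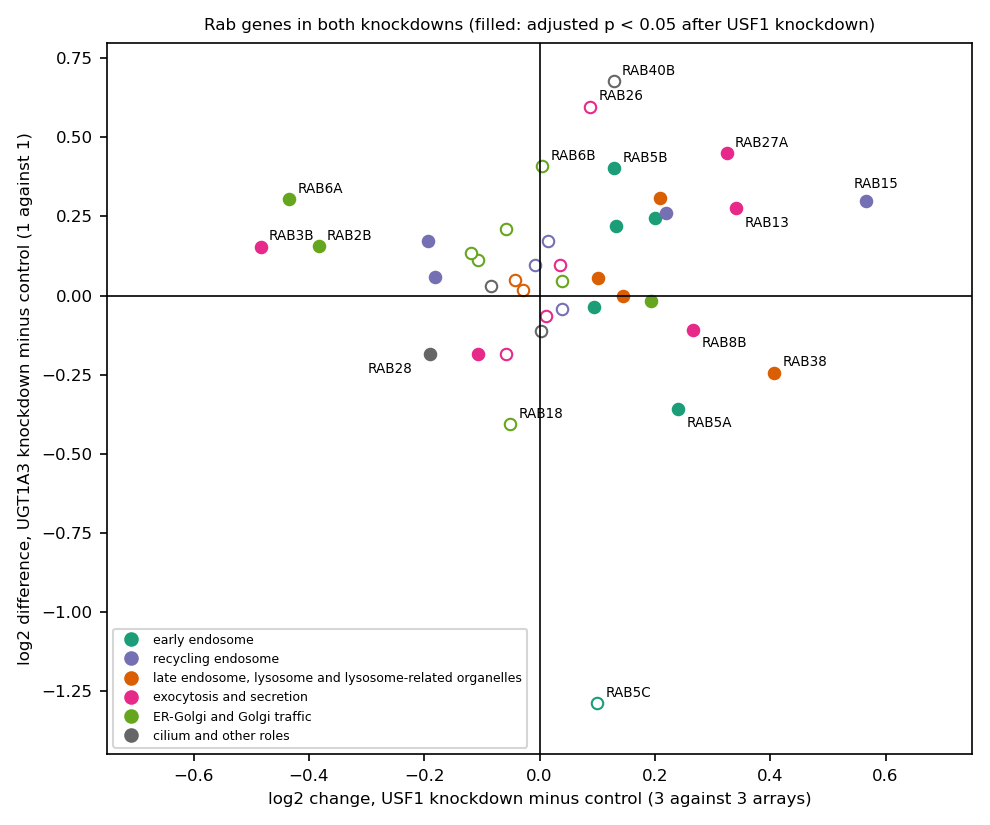
Log2 change after USF1 knockdown (horizontal axis, 3 against 3 arrays) and log2 difference in the UGT1A3 pair (vertical axis, 1 against 1 array) for the 41 Rab genes bright in both sets, coloured by role and filled where the adjusted p after USF1 knockdown was under 0.05. RAB15, RAB13 and RAB27A lie at the upper right, RAB6A at the upper left, and RAB5C stands alone at the bottom.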

How the data were processed

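The table the authors deposited holds a log2 intensity for each probe set on each array, its log base judged from the values. The tool MAS5 is listed, per the submitters' processing notes, without its role or version. How arrays were scaled against one another is not stated in any source at hand. Gene symbols came from the platform annotation. The table held 49395 probe sets, of which 102 control probe sets were left out. Of the rest 44988 had 1 symbol, 1832 several and 2473 none, and 44961 were looked up by Entrez number in RefSeq genes of GRCh38.p14. A probe set annotated with more than 1 symbol was assigned to none.

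The USF1 arrays were fitted on all bright genes with limma 3.58.1 in R 4.3.3 (lmFit and eBayes, two-sided, Benjamini-Hochberg over all tested genes), without a replicate block, and again on all 27182 bright probe sets with 1 symbol. The fitting code was first tested on simulated data. The UGT1A3 pair gave differences only. Replicate numbers were shared between groups, but the deviations of same-numbered arrays correlated at -0.10, 0.20 and 0.09, so the numbers were not taken to pair the arrays. The members, role groups and lists were chosen with earlier results of these data known, and RAB6D was added to the Golgi group once the annotation had been read.

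Values in every array are given for Rab genes that passed with at least a 1.2-fold change, for the largest change in each role group, and for up to 6 genes in each direction at least 1.2-fold apart in the UGT1A3 pair. From each list up to 4 tested members with the smallest adjusted p are named. Alternatives were quantile normalization, centring on the median, no dim limit, a dim limit raised to the 60th percentile, adding 16 intensity units ahead of the log, averaging every probe set of a gene, an intensity trend with a robust prior, a replicate block, and leaving out each USF1 array.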

Additional observations from a re-analysis of the deposited data

How the results depend on the processing

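The 8 Rab genes past 1.2-fold after USF1 knockdown kept their direction and an adjusted p under 0.05 in every alternative that tested them. For RAB38 this was 12 of the 14 alternatives, since it was dim in the others. Of these 8, RAB27A, RAB6A and RAB8B went under 1.2-fold in some: RAB27A and RAB6A at 0.16 and -0.25 with probe sets averaged, RAB8B at 0.26 with 16 intensity units added and down to 0.23 with 1 array left out. Of the 41 tested Rab genes 26 kept their call in every alternative that tested them, and some dimmer ones were left out of 1 or more. But 9 of these 26, none of which passed, changed sign in some alternative and 17 did not. RAB6B turned from 0.004 to -0.27 (adjusted p = 0.0203) when its probe sets were averaged. Its other bright probe set changed by -0.39 and a dim one by -0.41. Why the RAB6B probe sets differed was not tested. Averaging also cost RAB11A, RAB21, RAB4A and RAB5B their calls (adjusted p = 0.0567, 0.163, 0.199 and 0.079) and added RAB18, RAB1A, RAB35 and RAB5C (0.00559, 0.00194, 0.0125 and 0.0325). The numbers of Rab genes that rose and fell ran from 12 to 17 and from 6 to 9, with 15 and 7 in the main fit, and from 12 to 14 and 6 to 7 when 1 array was left out. With the replicate block 13 rose and 6 fell, and RAB21, RAB32 and RAB8A lost their calls (adjusted p = 0.0722, 0.0617 and 0.0711). With no dim limit the share of all genes that passed was 20.1%, beside 40.7% with it, where more genes were tested, and the same 3 Rab genes lost their calls (adjusted p = 0.105, 0.0756 and 0.0786). RAB5C passed with quantile normalization (0.0411), median centring (0.0355), the 60th percentile limit (0.0266) and the intensity trend (0.0152), RAB40B with quantile normalization (0.0393) and RAB2A with the intensity trend (0.0216). In the UGT1A3 pair 7 to 13 Rab genes were 1.2-fold higher and 2 to 4 were 1.2-fold lower over the alternatives, with 10 and 3 in the main setting. There RAB5C ran from -1.32 with median centring to -1.22 with 16 intensity units added, which put RAB39B at 0.67, and averaging probe sets put RAB18 at -0.21 and RAB5B at 0.26. Signal near background and 1 array per UGT1A3 group limit what can be said of dim genes and of that pair.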

Other observations

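Besides the probe sets with 1 symbol, 12 probe sets named a Rab gene together with another gene, and 10 of these were bright in the USF1 arrays. Fitted with all 29576 bright probe sets, 2 rose and 2 fell. Of all bright probe sets with 1 symbol 37.6% passed, so such calls are common in these arrays. Both probe sets of RAB43, a Golgi GTPase, shared with the readthrough transcript ISY1-RAB43, rose after USF1 knockdown. The brighter read 8.82, 8.80 and 8.81 on the knockdown arrays and 8.44, 8.38 and 8.35 on the controls (change 0.42, SE 0.04, limma adjusted p = 3.19e-04), and the other changed by 0.27 (adjusted p = 0.0189). In the UGT1A3 pair the brighter was higher by 0.40 in the knockdown array. The 2 probe sets shared by RAB6A, RAB6C and RAB6D fell by 0.36 and 0.40 after USF1 knockdown (adjusted p = 0.00159 and 0.00469).

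The 3 probe sets shared by RAB1A and RAB1B, both of traffic from the endoplasmic reticulum to the Golgi, changed by -0.02, -0.01 and 0.08 after USF1 knockdown and did not pass. The probe set of RAB4B, the paralog of RAB4A, shared with the readthrough MIA-RAB4B, read 8.13, 8.01 and 7.96 after knockdown and 7.95, 7.91 and 7.86 in the controls (0.13, adjusted p = 0.0852). In the UGT1A3 pair it was higher by 0.40. The 2 probe sets shared by RAB24 and MXD3 changed by -0.02 and 0.06.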
